A study of Homo sapiens with 21 samples.

Results

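The DNA end-joining genes described here are XRCC5, XRCC6, PRKDC, DCLRE1C, XRCC4 and LIG4 of the classical pathway, and PARP1, XRCC1, LIG3 and POLQ, which are grouped with the alternative pathway. They were chosen by name, 10 of the 26485 genes in the count table. Their mRNA and the S9.6 peaks over each gene and the 5000 bp past its end were measured in MDA-MB-436, an established breast cancer line with a mutated BRCA1 gene. All cells carried a doxycycline-inducible lentiviral hairpin, either a control sequence (shScr, labelled WT) or one against the ubiquitin ligase RNF8 (shRNF8, labelled RNF8-KD). The series title concerns RNF8, the exonuclease XRN2 and R-loops in BRCA1-mutant cells. Polyadenylated RNA came from 3 shScr and 3 shRNF8 libraries. Immunoprecipitates with S9.6, an antibody that binds DNA-RNA hybrids, came from 2 shScr and 4 shRNF8 libraries, and a matching set of 2 and 4 libraries is labelled as RNase-treated, with the kind of RNase given only as a code. The remaining 3 of the 21 samples are inputs and were not analysed here. No further RNF8 hairpin or rescue is labelled, and dose and duration of doxycycline are not given in the sources used here. Effects of lower RNF8 therefore cannot be told apart from other effects of the hairpin or from differences between the transduced populations. Nothing in the labels ties libraries to separate cultures, and p-values thus reflect the spread between these libraries only, part or all of which may be technical.

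Classical non-homologous end joining begins when the Ku ring, made of the XRCC5 and XRCC6 proteins, slides onto a broken DNA end and recruits the kinase encoded by PRKDC. DCLRE1C encodes Artemis, the nuclease that opens hairpins and trims ends, and the XRCC4 and LIG4 proteins form the complex that seals the break. In the alternative route, resected ends anneal through short stretches of matching bases, the polymerase encoded by POLQ extends them, and PARP1, LIG3 and XRCC1 take part. These last also act in single-strand break repair, where PARP1 senses the nick and XRCC1 is the scaffold that holds LIG3. Cells without working BRCA1 are impaired in homologous recombination, and loss of PARP1 activity or of POLQ is known to be poorly tolerated by them. R-loops are structures in which RNA pairs with its template and displaces the other DNA strand, and they are known to form where that displaced strand is rich in G.

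The stretches just upstream of 5 genes are shown because peaks over their promoters differed between genes and libraries. They come from RefSeq (GRCh38.p14), are printed 5′ to 3′ along the direction of transcription, and stop where the gene begins in the count table. Capitals mark runs of at least 4 G.
PARP1 (chr1:226408101-226408343, minus strand): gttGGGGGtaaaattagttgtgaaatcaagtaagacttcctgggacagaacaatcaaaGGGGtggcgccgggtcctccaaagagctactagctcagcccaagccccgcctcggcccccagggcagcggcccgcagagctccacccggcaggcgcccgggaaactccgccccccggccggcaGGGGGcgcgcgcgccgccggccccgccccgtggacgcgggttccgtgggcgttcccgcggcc
XRCC1 (chr19:43575579-43575777, minus strand): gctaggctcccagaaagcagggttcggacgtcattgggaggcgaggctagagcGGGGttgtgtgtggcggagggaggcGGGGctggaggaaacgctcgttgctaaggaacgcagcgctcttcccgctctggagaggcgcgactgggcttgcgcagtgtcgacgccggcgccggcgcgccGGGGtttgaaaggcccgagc
XRCC6 (chr22:41621045-41621162, plus strand): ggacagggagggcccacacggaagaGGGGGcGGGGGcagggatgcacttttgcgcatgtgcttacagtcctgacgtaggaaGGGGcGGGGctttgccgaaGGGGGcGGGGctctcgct
LIG3 (chr17:34980262-34980497, plus strand): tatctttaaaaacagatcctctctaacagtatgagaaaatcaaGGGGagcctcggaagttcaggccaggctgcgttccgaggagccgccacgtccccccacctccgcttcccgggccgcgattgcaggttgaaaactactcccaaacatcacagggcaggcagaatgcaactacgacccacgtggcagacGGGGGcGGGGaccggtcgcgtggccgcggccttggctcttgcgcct
POLQ (chr3:121546007-121546238, minus strand): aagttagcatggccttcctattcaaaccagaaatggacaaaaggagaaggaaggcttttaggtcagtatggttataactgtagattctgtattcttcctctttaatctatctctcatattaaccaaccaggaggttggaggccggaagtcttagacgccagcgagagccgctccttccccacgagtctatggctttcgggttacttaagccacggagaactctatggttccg
The printed stretches held 3 such runs at PARP1, 3 at XRCC1, 6 at XRCC6, 3 at LIG3 and 0 at POLQ. They are shorter than the full promoter windows described next, which held 3, 3, 7, 3 and 1 in the same order.

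RefSeq promoter windows, from 250 bases before to 50 after the start, were matched for 8 members, taking the window nearest to the start in the count table, and not for XRCC5 and PRKDC. An S9.6 peak lay over the PARP1 window in shRNF8 replicates 1, 3 and 4, and over the XRCC1 and XRCC6 windows in shRNF8 replicates 3 and 4. Peaks just outside these windows came from shScr too. The merged region at the XRCC1 start included shScr replicate 1 (fold 3.66), and that at the XRCC6 start shScr replicate 2 (fold 4.94). At the PARP1 start the merged region held no shScr peak. The LIG4 window was covered in shScr replicate 1 and shRNF8 replicates 3 and 4, and the LIG3 window in shScr replicate 1 alone. No S9.6 library had a peak over the windows of POLQ, XRCC4 or DCLRE1C. Among 34961 promoter windows, 33.1% held a peak in at least 1 S9.6 library and 10.0% in all 6. GC content was 70.0% at PARP1, 72.3% at LIG4, 68.7% at XRCC1, 62.0% at XRCC6, 61.7% at LIG3, 60.7% at XRCC4, 50.3% at POLQ and 47.0% at DCLRE1C, against a median of 58.7%. The excess of G over C on the coding strand of the gene, as a share of both, had a median of 1.19% over all windows. It was 29.0% at XRCC6, the highest of the 8, and -18.9% at LIG4, the lowest. POLQ and DCLRE1C, which had no peak over their windows, came next after XRCC6 with 12.6% and 12.1%. XRCC1 had 2.91%, PARP1 2.86%, XRCC4 -4.40% and LIG3 -4.86%. A link between this excess and the peaks was not tested. A run of GGGG on that strand was present in 75.1% of all windows and one of CCCC, the same run on the other strand, in 73.7%. The starts of LIG4, XRCC4, XRCC6 and PRKDC lie 47, 45, 106 and 20 bp from a start on the other strand, those of ABHD13, TMEM167A, DESI1 and MCM4. A peak there cannot be assigned to either gene.

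The RNA libraries held 18121181 to 20006954 counts. RNF8 measured 28.9, 29.1 and 28.0 CPM (counts scaled to library size) in shScr and 9.33, 9.99 and 7.94 CPM in shRNF8, 3.15-fold lower (edgeR adjusted p = 0.000165). Of the RNA libraries, shScr replicate 1 stood furthest from its own group. The chi-square per degree of freedom between its counts and those of shScr replicates 2 and 3 was 32.5 and 31.4, against 3.56 between replicates 2 and 3, and it was nearer to the shRNF8 libraries (18.4, 19.0 and 20.6). In shRNF8, replicate 3 differed from replicates 1 and 2 by 14.0 and 11.5, against 3.01 between those. Member results are given with and without shScr replicate 1. The S9.6 libraries held 32358 to 50963 peaks, and the shRNF8 libraries formed pairs. Peaks covered 39.5 and 34.4 Mb in shRNF8 replicates 1 and 2, 83.5 and 79.0 Mb in replicates 3 and 4, and 47.6 and 43.4 Mb in shScr. In the lists of the second pair the individual peaks are named after replicates 1 and 2, though the peaks differ, and results are therefore also given for each pair. Basal and mesenchymal markers (VIM, CD44, CAV1, CAV2, EGFR) summed to 1812-1911 CPM in shScr and 1829-1952 CPM in shRNF8, and 5 of 5 were above 1 CPM. VIM and CD44 carried that sum, while the list's median log2 fold change was -0.28, with -0.39 for EGFR, -0.29 for CAV1, -0.28 for CAV2, whose groups did not overlap, and 0.16 for VIM. By edgeR 0 of the 5 passed (lowest adjusted p = 0.207), 2 had an unadjusted p under 0.05, and their part in the member results was not tested. Of 7 luminal markers 3 (ESR1, PGR, EPCAM) were under 1 CPM, and the list summed to 822-1359 CPM in shScr and 1011-1047 CPM in shRNF8, highest in shScr replicate 1. KRT8 (mean 649 CPM in shScr and 688 CPM in shRNF8) and KRT18 (383 and 331 CPM) carried that sum. Immune markers were under 1 CPM for 3 of 4, with 1 at 0 counts in every library, and all 3 endothelial markers were under 1 CPM and summed to 0.250-1.38 CPM in shScr and 0.441-0.774 CPM in shRNF8. The immune sum, which CD68 carried, was 110-127 CPM in shScr and 139-153 CPM in shRNF8, and its part in the member results was not tested.

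The members spanned a wide range of mRNA levels, given here as CPM per kb of exon with the SD over the 6 libraries. The Ku genes and PARP1 were the most abundant: XRCC6 had 252 ± 25.6, XRCC5 181 ± 24.5 and PARP1 160 ± 13.4 (n = 6). PRKDC followed with 47.9 ± 5.09 and XRCC1 with 20.2 ± 2.48. LIG3 had 9.56 ± 1.39 and POLQ 7.49 ± 0.201, and the ligation pair LIG4 and XRCC4 had 4.91 ± 0.607 and 3.90 ± 0.243. DCLRE1C was lowest at 2.29 ± 0.316. Neighbours in this order overlapped over the libraries for XRCC5 and PARP1, for LIG3 and POLQ, and for LIG4 and XRCC4, and the other neighbours did not overlap. On this scale XRCC6 was above 98.6% of the 13541 tested genes with 1 locus and DCLRE1C above 26.9%. RefSeq lists 5 pseudogenes of XRCC6, 2 of PARP1 and 1 of DCLRE1C, so reads of these 3 genes may be shared with copies and their levels are uncertain.

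**Figure D1:**
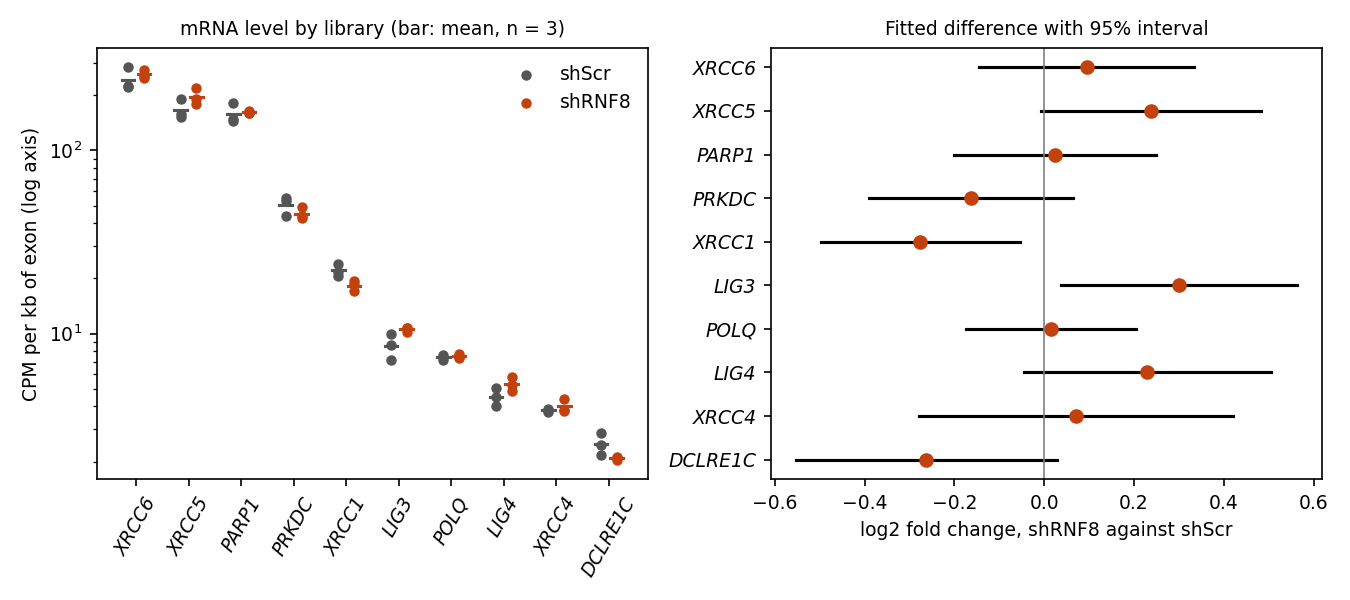
mRNA of the 10 members in shScr (grey) and shRNF8 (orange). Left, CPM per kb of exon on a log axis for each library, with a bar at the mean of 3. Right, the log2 fold change of shRNF8 against shScr with its 95% interval, which lies above 0 for LIG3 and below 0 for XRCC1 before adjustment for the genes tested.

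The first comparison asked whether end-joining mRNA differs when RNF8 is targeted. None of the 10 members passed the test with all 6 libraries. LIG3 was higher and XRCC1 and DCLRE1C were lower in every shRNF8 library than in any shScr library, by 1.20- to 1.23-fold. The test was edgeR's quasi-likelihood test over 14018 genes with Benjamini-Hochberg adjustment, with an adjusted p under 0.05 as the threshold, which 2.54% of genes met (0.970% higher and 1.57% lower in shRNF8). Before adjustment 2 of 10 members had p under 0.05, against 20.1% of all genes. DESeq2 and limma-voom also called 0 of 10, with 3 and 2 members under 0.05 before adjustment. The median log2 fold change of the members was 0.05, beside -0.00 over all genes tested, with 7 of 10 positive. In bulk RNA, fewer cells that express a gene and less RNA per cell cannot be told apart.

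Of the Ku genes, XRCC5, which encodes the larger subunit, had 652, 540 and 520 CPM in shScr replicates 1, 2 and 3 and 616, 655 and 749 CPM in shRNF8 replicates 1, 2 and 3. Its groups overlapped through shScr replicate 1, and the log2 fold change was 0.24 (SE 0.11, edgeR adjusted p = 0.264). XRCC6, the smaller subunit, had 661, 522 and 516 CPM in shScr and 580, 593 and 642 CPM in shRNF8. Here shScr replicate 1 was the highest of the 6 libraries, while the other shScr values lay below every shRNF8 value (log2 fold change 0.09, SE 0.11, edgeR adjusted p = 0.662). PRKDC, the catalytic subunit of DNA-dependent protein kinase, showed the opposite order, with 596, 739 and 718 CPM in shScr and 660, 593 and 579 CPM in shRNF8. Its shScr replicate 1 lay within the shRNF8 range and the log2 fold change was -0.16 (SE 0.10, edgeR adjusted p = 0.403).

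Among the end-processing and ligation genes, DCLRE1C had 15.1, 19.9 and 17.2 CPM in shScr and 14.3, 14.6 and 14.7 CPM in shRNF8. The groups did not overlap, with the 3 shRNF8 values close together below the lowest shScr value, but the log2 fold change of -0.26 (95% interval -0.55 to 0.03) did not pass (edgeR adjusted p = 0.294). LIG4, the ligase itself, had 21.8, 19.7 and 17.5 CPM in shScr and 22.9, 21.2 and 25.2 CPM in shRNF8. Its groups overlapped by 1 library each way (log2 fold change 0.23, SE 0.13, edgeR adjusted p = 0.332). XRCC4, the partner of LIG4, had 6.49, 6.39 and 6.58 CPM in shScr and 6.45, 6.51 and 7.49 CPM in shRNF8. Only shRNF8 replicate 3 lay outside the shScr range, and the difference of 0.07 (log2, 95% interval -0.28 to 0.42) did not pass (edgeR adjusted p = 0.840).

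POLQ, the polymerase of microhomology-mediated joining, was the steadiest member: 65.8, 67.4 and 63.0 CPM in shScr and 64.7, 67.9 and 65.7 CPM in shRNF8. The groups overlapped, and the 95% interval of its log2 fold change ran from -0.17 to 0.20 around 0.01 (edgeR adjusted p = 0.942). PARP1 had 728, 579 and 588 CPM in shScr and 654, 637 and 636 CPM in shRNF8. All shRNF8 values lay between shScr replicate 1 and the other shScr libraries, and the log2 fold change was 0.02 (95% interval -0.20 to 0.25, edgeR adjusted p = 0.921).

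LIG3 and XRCC1, whose products work as a pair, lay on opposite sides of no change. LIG3 had 38.6, 28.1 and 33.6 CPM in shScr and 41.9, 41.7 and 40.0 CPM in shRNF8. Every shRNF8 library was above every shScr library, with a log2 fold change of 0.30 (95% interval 0.04 to 0.56), and the test was not passed (edgeR adjusted p = 0.195). XRCC1, the scaffold that binds LIG3, had 43.4, 45.8 and 50.4 CPM in shScr and 40.5, 39.1 and 35.7 CPM in shRNF8. Every shRNF8 library was below every shScr library, with a log2 fold change of -0.28 (95% interval -0.50 to -0.05), and this did not pass either (edgeR adjusted p = 0.162). In all, the groups did not overlap for 3 of 10 members, beside 25.3% of all genes tested (12.5% higher and 12.8% lower).

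Leaving out shScr replicate 1 changed these calls. Without it 6 of 10 members passed, when 27.1% of 14259 genes did. LIG3 (log2 fold change 0.42, edgeR adjusted p = 0.00619), XRCC5 (0.35, adjusted p = 0.00679) and XRCC6 (0.22, adjusted p = 0.0386) were then higher in shRNF8. XRCC1 (-0.32, edgeR adjusted p = 0.0195), PRKDC (-0.25, adjusted p = 0.0237) and DCLRE1C (-0.35, adjusted p = 0.0359) were lower. LIG4 (0.31, edgeR adjusted p = 0.0549), PARP1 (0.14, adjusted p = 0.163), XRCC4 (0.07, adjusted p = 0.780) and POLQ (0.02, adjusted p = 0.882) did not pass. With any other library left out, 0 members and between 46 and 132 genes passed.

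The surrounding repair genes, in 5 lists, also gave 0 calls with all 6 libraries by edgeR, DESeq2 or limma-voom. Before adjustment, edgeR had 0, 1, 1, 2 and 3 genes at p under 0.05 in the lists as ordered here, beside 20.1% of all genes. In the list of other classical end-joining genes (9 tested, median log2 fold change -0.04), NHEJ1, whose product XLF aligns ends with XRCC4, had a log2 fold change of 0.28 (edgeR adjusted p = 0.317). ERCC6L2 (0.22), C7orf49, which encodes a Ku-binding peptide (0.18), and the polymerase gene POLM (-0.09) were the next by p. For 53BP1, RIF1 and shieldin, which protect ends from resection (10 tested, median -0.01), the AAA ATPase gene TRIP13 had 0.34 (edgeR adjusted p = 0.145), its shieldin substrate MAD2L2 -0.17, TP53BP1 0.08 and C20orf196 -0.21. For the PARP family and ADP-ribose turnover (15 tested, median 0.08), the tankyrase gene TNKS had -0.25 (edgeR adjusted p = 0.237) and its relative TNKS2 0.18, the remodeller CHD1L 0.18 and PARP3 0.20. For resection and microhomology-mediated joining (18 tested, median 0.16), the mismatch-repair gene MSH3 had 0.34 (edgeR adjusted p = 0.194), and the resection genes RBBP8, NBN and DNA2 had 0.31, 0.35 and 0.22. For single-strand break and base excision repair (17 tested, median 0.05), the glycosylase genes OGG1 and TDG had 0.30 and 0.29, the AP endonuclease gene APEX1 0.30 and the sliding clamp PCNA 0.25, with a lowest edgeR adjusted p of 0.193. Without shScr replicate 1, 1, 1, 1, 6 and 6 genes of the 5 lists passed, of 9, 10, 15, 18 and 17 tested. Of all genes, 27.1% passed in that setting, 1823 higher and 2042 lower in shRNF8. Of the list genes that passed, TNKS alone was lower in shRNF8.

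S9.6 peaks lay over 9 of the 10 members in at least 1 library, beside 79.6% of the genes tested for mRNA that have 1 locus and 55.0% of all 24993 genes with 1 locus. PARP1, LIG3, XRCC1, XRCC5, XRCC6 and PRKDC had a peak in all 6 libraries (45.3% and 29.4% of those genes). POLQ and DCLRE1C had one in 5 libraries, LIG4 in 3, and XRCC4 in none. The members held 423 peaks summed over the libraries, and the fold over local background given by the authors was 2.42 to 13.0 with a median of 4.69. By their summits, 310 peaks (73.3%) lay in introns, 57 past the gene end, 33 in exons and 23 within 1000 bp of a gene start.

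**Figure D2:**
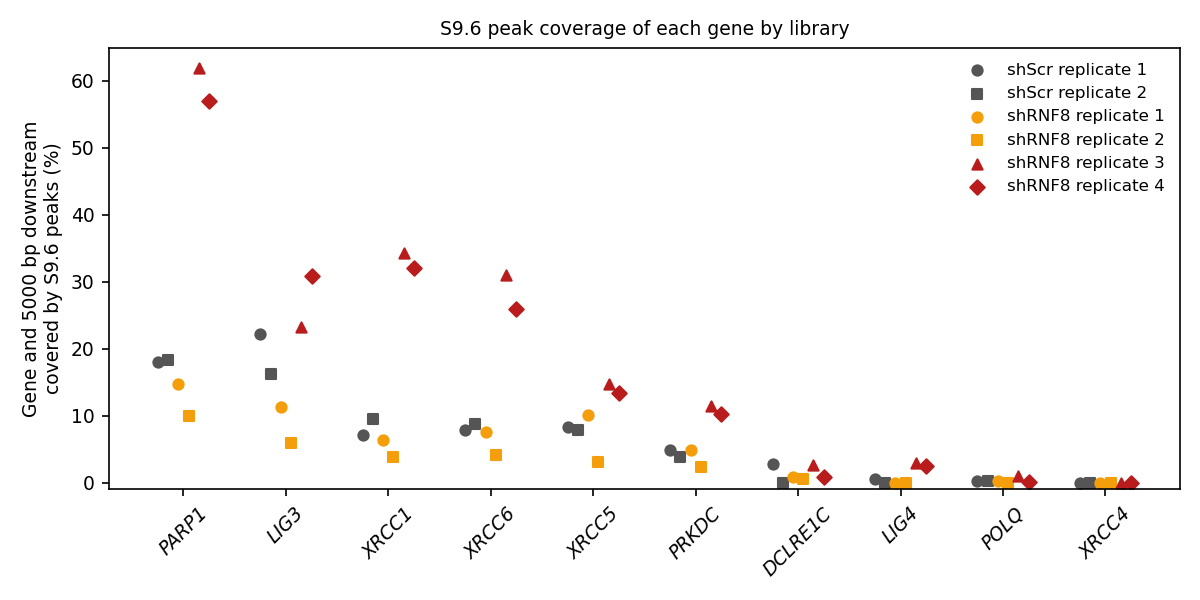
Share of each member (gene and 5000 bp downstream) inside S9.6 peaks, one point per library: shScr grey, shRNF8 replicates 1 and 2 orange, shRNF8 replicates 3 and 4 red. PARP1 reached 61.8% and 56.9% in shRNF8 replicates 3 and 4, while XRCC4 was at 0 in every library.

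PARP1 (chr1:226360691-226408100, minus strand, hg38) was the most covered member by its mean over the 6 libraries, though LIG3 was above it in shScr replicate 1. Peaks covered 17.9% and 18.2% of its window in shScr, 14.7%, 9.92%, 61.8% and 56.9% in shRNF8 replicates 1 to 4. The shScr values lay between the shRNF8 pairs. Its peak with the highest fold, 9.93, was at chr1:226389552-226392403 in shRNF8 replicate 1, with the summit in an exon. LIG3 (chr17:34980498-35005069, plus strand) was covered over 22.2% and 16.2% in shScr and 11.3%, 5.85%, 23.3% and 30.8% in shRNF8. The merged region chr17:35000884-35005482, at the end of the gene, had peaks from all 6 libraries, including the LIG3 peak of highest fold (10.6, in shRNF8 replicate 3). Single peaks crossed the gene end there in shRNF8 replicates 3 and 4 and in no other library. The last 958 bp of the LIG3 window also belong to RFFL and RAD51L3-RFFL on the other strand. XRCC1 (chr19:43543312-43575578, minus strand) was covered over 7.16% and 9.48% in shScr and 6.38%, 3.81%, 34.3% and 32.0% in shRNF8, again with shScr between the pairs. Its peak of highest fold, 8.80, was at chr19:43546629-43547125 in shRNF8 replicate 2, with the summit in an exon.

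Both Ku genes had peaks in all 6 libraries. XRCC6 (chr22:41621163-41664048, plus strand) was covered over 7.78% and 8.81% in shScr and 7.56%, 4.11%, 31.0% and 25.9% in shRNF8. In the map of its peaks shRNF8 replicates 3 and 4 had bars along the first part of the gene where both shScr libraries had few, and the peak of highest fold, 10.6, was in an intron at chr22:41632173-41633282 in shRNF8 replicate 1. XRCC5 (chr2:216109297-216206293, plus strand) was covered over 8.22% and 7.80% in shScr and 10.1%, 3.13%, 14.7% and 13.4% in shRNF8. It carried the member peak with the highest fold of all, 13.0, in an intron at chr2:216114350-216115599 in shRNF8 replicate 1. PRKDC, the longest member but for XRCC4 with 187076 bp on chromosome 8, was covered over 4.82% and 3.81% in shScr and 4.81%, 2.30%, 11.5% and 10.2% in shRNF8. Its peaks numbered 24 and 16 in shScr and 12, 10, 34 and 31 in shRNF8, the most of any member in 5 of 6 libraries, and none of its 61 merged regions was called in all 6.

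The remaining members were covered little or not at all. DCLRE1C (chr10:14904611-14954432, minus strand) had 2.69% and 0% in shScr and 0.790%, 0.471%, 2.63% and 0.877% in shRNF8. SUV39H2 on the other strand takes up 4695 bp of its downstream window. The DCLRE1C peak of highest fold, 6.32, was in an intron at chr10:14921936-14922212 in shScr replicate 1. LIG4 (chr13:108207444-108218368, minus strand) had 0.553% and 0% in shScr and 0%, 0%, 2.96% and 2.52% in shRNF8. Its peak of highest fold, 4.20, was in an intron at chr13:108217114-108217510 in shRNF8 replicate 3. POLQ (chr3:121431426-121546006, minus strand) had 0.276% and 0.270% in shScr and 0.235%, 0%, 0.907% and 0.0920% in shRNF8. The POLQ peak of highest fold, 5.64, lay past the gene end at chr3:121426222-121426535 in shRNF8 replicate 4, and replicate 3 also had a peak there. Another POLQ peak, in an intron near the gene end, recurred in both shScr libraries and in shRNF8 replicates 1 and 3. XRCC4 (chr5:83077498-83353760, plus strand), at 276263 bp the longest member, had no peak in any S9.6 library. The lists hold only peaks above the authors' threshold and no read depth, so weaker signal over XRCC4 was not detectable here.

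**Figure D3:**
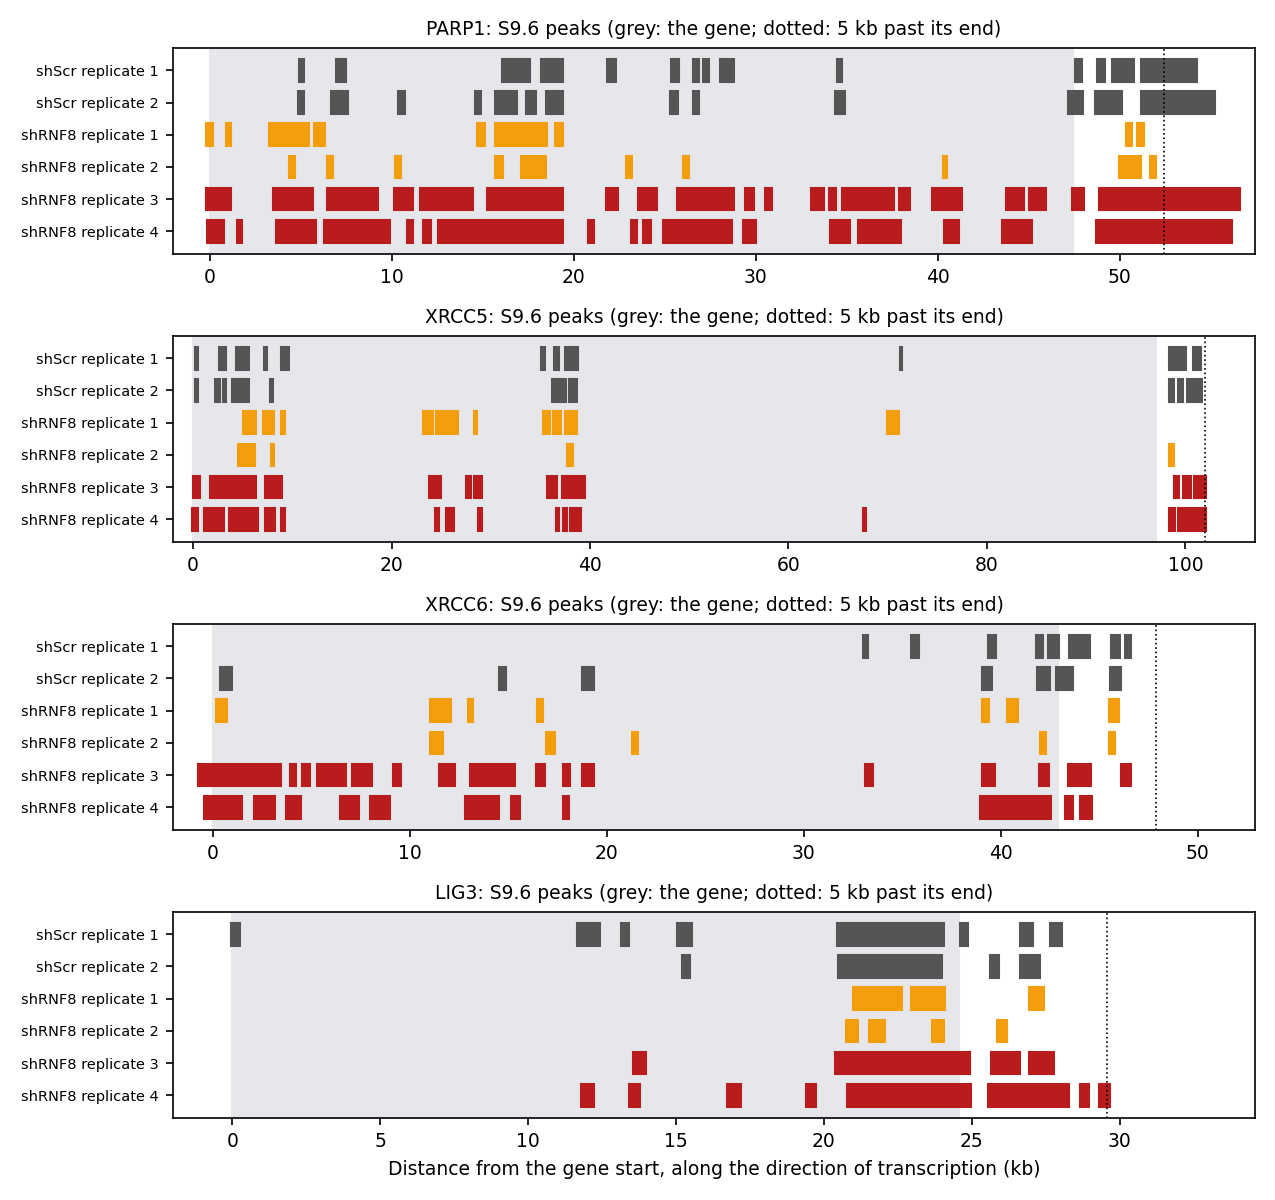
S9.6 peaks over PARP1, XRCC5, XRCC6 and LIG3 in the 6 libraries, drawn as bars along the distance from the gene start in kb in the direction of transcription (grey, the gene; dotted line, 5 kb past its end). Peaks past the end of PARP1 recur in all 6 libraries, and those of shRNF8 replicates 3 and 4 (red) are wider than those of replicates 1 and 2 (orange).

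Merged over libraries, the member peaks formed 148 regions. Of these 11 were called in all 6 libraries: 3 at PARP1, 3 at XRCC5, 2 at LIG3, 2 at XRCC1 and 1 at XRCC6. In 1 library alone 67 were called. By group, and counting those again, 80 were called only in shRNF8 (4 libraries) and 20 only in shScr (2 libraries). Peaks covered 83.5 and 79.0 Mb in shRNF8 replicates 3 and 4, against 47.6 and 43.4 Mb in shScr. No share over the regions of all genes was computed, so these and the following counts cannot be set apart from that difference between libraries. A region was called in all 4 shRNF8 and neither shScr library once, in a PRKDC intron, with folds of 5.04, 5.29, 3.08 and 2.87. Regions in both shScr and no shRNF8 library numbered 2, one at LIG3 (chr17:34995536-34996052, folds 4.74 and 4.27) and one at PRKDC.

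PARP1 was covered more densely past its end than along the gene. The 5000 bp downstream of PARP1 were covered over 65.7% and 66.8% in shScr and 14.98%, 29.8%, 83.9% and 74.9% in shRNF8, against 12.9%, 13.1%, 14.7%, 7.82%, 59.5% and 55.0% of the gene itself. The downstream part was the more covered in all 6 libraries, as at 13.9% of the genes with a peak. The region chr1:226351482-226359487, which begins 1204 bp past the gene end, had peaks in all 6 libraries, with folds of 7.18 and 9.66 in shScr and 7.46, 5.44, 9.01 and 7.52 in shRNF8. XRCC5, LIG3 and XRCC6 were more covered downstream in 5 of 6 libraries, as at 19.2% of genes in at least 5. XRCC5 had 49.8% and 49.2% downstream in shScr and 0%, 9.66%, 48.2% and 66.3% in shRNF8, LIG3 had 22.2%, 19.98%, 10.3%, 6.76%, 44.8% and 73.7% in the same order, and XRCC6 had 37.8%, 26.96%, 9.50%, 5.92%, 33.5% and 20.8%. In these 4 genes shRNF8 replicates 1 and 2 had less downstream coverage than both shScr libraries. Replicates 3 and 4 of shRNF8 were above both shScr libraries for PARP1 and LIG3 and not for XRCC5 and XRCC6. Of all 7 members covered downstream, replicates 3 and 4 were above both shScr libraries at 4 (POLQ, PARP1, LIG3 and XRCC1) and below both at 0. Replicates 1 and 2 were below both at the 4 genes above and above both at 0. Of the 9210 genes covered downstream in any library, shRNF8 replicates 1 and 2 were below both shScr libraries at 31.7% and above both at 7.85%, and replicates 3 and 4 were above both at 54.4% and below both at 7.95%. XRCC1 was more covered downstream in 3 libraries, PRKDC and POLQ in 2, and LIG4, DCLRE1C and XRCC4 in none.

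RNase treatment left 0 peaks over any member in the 6 treated libraries, which held 254 to 1912 peaks in all. Among genes with an S9.6 peak, 4.28% kept a peak in at least 1 treated library. Coverage was compared between untreated and treated libraries by a two-sided exact permutation within each hairpin (420 arrangements, smallest p 0.00476), adjusted over 13829 genes. Of the 9 members with a peak 8 passed, beside 63.2% of all genes tested. Of the 13829 genes, 13757 entered the test through an S9.6 peak. With 0 treated peaks at the members, the outcome largely followed from how many S9.6 libraries held a peak, and it is no separate support. The adjusted exact permutation p was 0.00902 for PARP1, LIG3, XRCC1, XRCC5, XRCC6 and PRKDC, 0.0260 for DCLRE1C and 0.0381 for POLQ. LIG4 did not pass (0.273). With treated and untreated libraries of a number exchanged as pairs (64 arrangements), 0 members and 0 of all genes passed. The adjusted exact permutation p of the first 6 was 0.0590. Those 6 had the smallest p that 64 arrangements can give, and its adjusted value depended on how many other genes shared it.

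The next comparison asked whether hybrid signal over these genes differed between shRNF8 and shScr. For none of the 9 members with a peak did the groups separate, beside 7.36% of genes that were higher and 7.65% that were lower in every shRNF8 library. The mean coverage of PARP1 was 18.1% ± 0.215 in shScr (SD, n = 2) and 35.8% ± 27.3 in shRNF8 (SD, n = 4; two-sided exact permutation p = 0.467). XRCC1 had 8.32% ± 1.64 and 19.1% ± 16.3 (exact permutation p = 0.467), and LIG3 19.2% ± 4.28 and 17.8% ± 11.3 (exact permutation p = 0.933). Over the 9 members the exact permutation p ran from 0.400 to 1.00, and 15 splits cannot give a p below 0.0667. After adjustment 0 of 13757 genes passed, and 0 had an unadjusted p under 0.05.

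The direction depended on the pair of shRNF8 libraries. In shRNF8 replicates 3 and 4 alone, 7 members (PARP1, LIG3, XRCC1, LIG4, XRCC5, XRCC6 and PRKDC) were above both shScr libraries and 0 were below, beside 58.8% of genes above and 10.4% below. In shRNF8 replicates 1 and 2 alone, 5 members (POLQ, PARP1, LIG3, XRCC1 and XRCC6) were below both shScr libraries and 0 were above, beside 37.6% of genes below and 9.66% above. Both shRNF8 replicates 3 and 4 exceeded both replicates 1 and 2 for 8 of 9 members, all but POLQ, and for 61.9% of genes with a peak. With the strongest 32358 peaks of each library this held for 5 of the 8 members with a peak, beside 55.6% of genes, and the coverage of PARP1 was 13.4% and 13.8% in shScr and 14.7%, 9.30%, 52.5% and 56.1% in shRNF8. At PARP1 the pairs thus did not overlap with the same number of peaks in every library either. What separates the pairs was not tested.

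**Figure D4:**
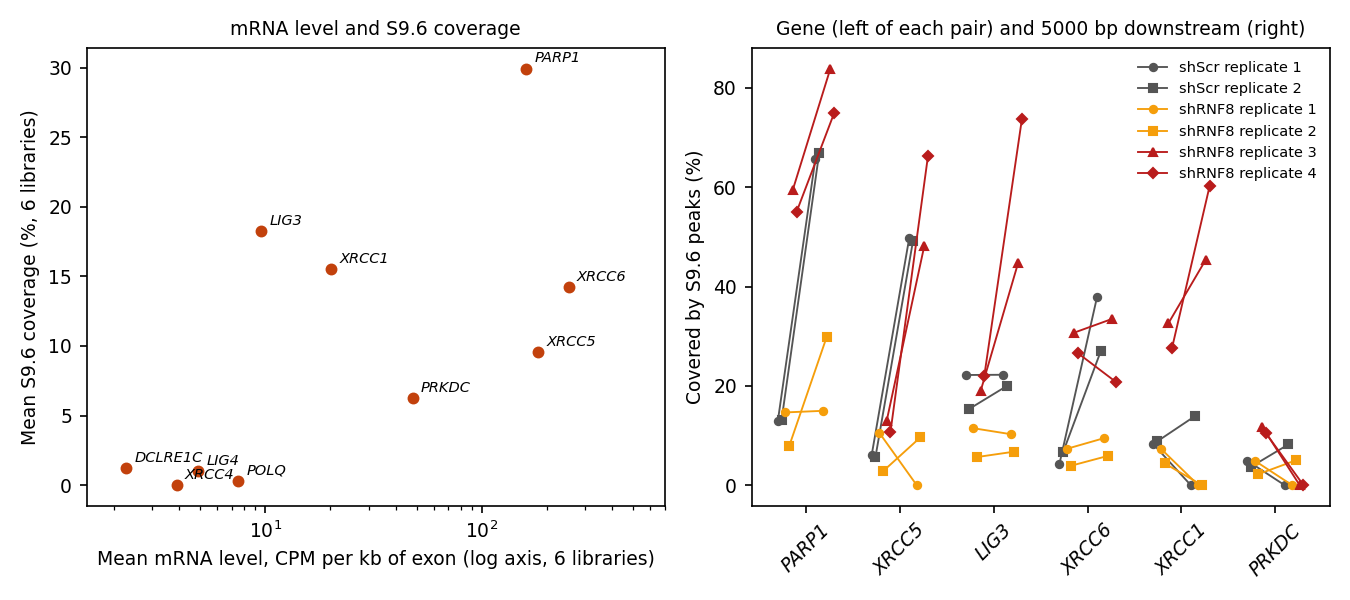
Left, mean S9.6 coverage of each member over 6 libraries against its mean mRNA level over 6 RNA libraries (CPM per kb of exon, log axis). Right, coverage of the gene and of the 5000 bp downstream for 6 members, with a line per library; the downstream value of PARP1 lies above the gene value in all 6.

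Coverage followed mRNA level in part. PARP1, XRCC5, XRCC6 and PRKDC, the 4 most abundant members per kb, had mean coverages of 29.9%, 9.56%, 14.2% and 6.24%. LIG3 and XRCC1, with far less mRNA per kb, had 18.3% and 15.5%, more than XRCC5 and XRCC6. POLQ, which overlapped LIG3 in mRNA level, had 0.297%. Spearman's rho between level and coverage was 0.64 over the 10 members and 0.43 over 13541 genes, as a description across genes that share libraries and differ in length.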

How the data were processed

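Raw fragment counts per gene were deposited by the authors for 26485 genes and 6 RNA libraries, made with featureCounts from read pairs on hg38 without a strand option, per the file headers. For S9.6 and RNase-treated libraries the authors deposited 1 peak list each, with fold over local background (a ratio) and -log10 of p and q. The submitters' processing notes list MACS2 2.2.7.1, Bowtie2 2.2.6, STAR 2.7.9a and Trim Galore 0.6.6, with no roles. Total read depth of the peak libraries is unknown. The 10 members and the gene lists were chosen with earlier results of these data known.

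Counts were filtered (filterByExpr, 14018 genes), TMM-scaled and tested with edgeR 4.0.16 (R 4.3.3). Groups came from the sample titles, and same-numbered RNA libraries did not pair. Peaks on chromosomes 1 to 22 and X were overlapped (Python 3.11.15) with gene windows from the count table; covered percent was compared by exact permutation. Scripts were tested on simulated data. Alternatives changed scaling, low-count filter, test tool, peak threshold, overlap and window, or left out libraries. Named list genes were the 4 with the smallest p per list. Named peaks were those of highest fold in each member with a peak. Peaks, regions and repeated peak edges named beyond these were chosen after their values were seen. The inputs were not analysed here.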

Additional observations from a re-analysis of the deposited data

Results flagged for a closer look

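Outliers were looked for in the 4 shRNF8 S9.6 libraries, by the gap of the highest or lowest library to its nearest neighbour as a share of the whole range. Of 25 sets examined 3 were flagged. The cut-off flags about 1 in 20 sets of independent, normally distributed values. These sets share libraries and include counts, so their own chance rate is unknown. The highest fold of a peak over XRCC5 had a share of 0.869, with shRNF8 replicate 1 at 13.0 and replicates 2, 3 and 4 at 6.67, 6.96 and 6.05. The highest fold over PRKDC had a share of 0.890, with replicate 1 at 12.3 and the others at 6.25, 6.35 and 5.62. The number of peaks over DCLRE1C had a share of 1.0, with 3 peaks in replicate 3 and 1 in each of the others. Tied counts like these fix the share at 1.0.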

How the results depend on the processing

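Beside 356 called genes in RNA, no low-count filter gave 648 and DESeq2 859, and leaving out 1 library gave 46 to 3865 genes and 0 to 6 members; a replicate block gave 501 genes and 0 members, with same-numbered deviations correlating at -0.05, 0.11 and -0.23, so numbers were not taken to pair the RNA libraries. Under the other alternatives 0 members were called. With 1 library left out the log2 fold change ran from -0.00897 to 0.0363 for POLQ and from -0.0363 to 0.140 for PARP1, turning negative in 2 leave-outs each. The number of members with S9.6 groups apart was 0 to 1 with 1 library left out: DCLRE1C higher without shScr replicate 1 (13.7% of genes higher) and lower without shScr replicate 2 (16.6% lower), XRCC5 higher without shRNF8 replicate 2 (20.1% higher) and POLQ lower without shRNF8 replicate 3 (10.3% lower). It was 7 without shRNF8 replicates 1 and 2 and 5 without replicates 3 and 4, both chosen after seeing the data. The difference in covered percent, shRNF8 minus shScr, turned to -5.79 for PARP1, -3.23 for XRCC1, -0.276 for LIG4, -1.41 for XRCC5, -2.46 for XRCC6, -0.759 for PRKDC and -0.156 for POLQ without replicates 3 and 4. For POLQ it was also -0.0109 over the gene alone and ran from -0.164 to 0.138 with 1 library left out. For LIG3 it turned to 1.24 with equal numbers of peaks, 7.87 without replicates 1 and 2, and ran from -5.70 to 2.61 with 1 library left out. For DCLRE1C it turned to 0.164 with equal numbers, 0.409 without replicates 1 and 2, and ran from -1.50 to 1.19 with 1 library left out. Against RNase, 8 members passed in the main setting. Without either pair of shRNF8 replicates 0 members and 0 of all genes passed, because 36 arrangements cannot give a two-sided p under 0.05. With the replicate block 0 members and 0 of all genes passed. Blocks changed no other member call. DCLRE1C and POLQ also did not pass with stricter peaks or equal numbers, nor POLQ over the gene alone. Causes of the other changes were not tested.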

Other observations

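Peaks were called separately in each library, and 816 distinct peak edges lay in the member windows. Of these, 4 were at the same base in 3 or more libraries. At PARP1, peaks of 5 of the 6 S9.6 libraries began at chr1:226388672, all but shRNF8 replicate 2. Peaks of 3 libraries ended at chr1:226392403 in the same gene, and peaks of 3 libraries began at chr2:216207668 past the end of XRCC5 and at chr22:41660219 in XRCC6. One PRKDC peak had the same start and end in shRNF8 replicates 1 and 2, with folds of 12.3 and 6.25. The cause of the shared edges was not tested.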
